A study of Mus musculus with 6 samples.

Results

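TEC is the Ensembl and GENCODE class, still awaiting experimental proof, for stretches of genome where clusters of unspliced cDNA or EST sequences with features of a poly(A) tail were found, but for which no gene model has been established. The members described here are the TEC rows of the deposited count table that lie on an autosome and have at least 60 counts summed over all 6 libraries. The rule took 388 of the 54532 rows. The table holds 3160 TEC rows, 3145 of them on autosomes, and 1511 of those autosomal rows had no count in any library. The rule used the count summed over both groups, so abundance is described without a test, while the difference between the groups was not used by the rule.

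The libraries came from TM3, a mouse cell line labelled as Leydig cells, which make testosterone in the testis. In 3 samples the cells had 0.1‰ DMSO, the vehicle, for 48 h, and in the other 3 they had 100 nM pyrotinib, an irreversible inhibitor of the ErbB receptor kinases, for 48 h. RNA was selected on oligo-dT beads and copied from random hexamers, and the series asks how the drug acts on the male reproductive system. All samples are of this 1 line.

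A TEC row can collect several known kinds of unspliced RNA, and which of them the members hold was not tested. Introns are transcribed with their gene and are normally removed and degraded, but some are kept in poly(A) RNA, some contain early cleavage and polyadenylation sites, and some contain genes of their own. Transcription can also run past the end of a gene, and oligo-dT can bind stretches of A inside an RNA. A spliced mRNA is usually cleaved shortly after a poly(A) signal, most often AATAAA or ATTAAA.

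The ends of 8 members show what these rows look like in sequence. They are the last 50 bases of the annotated transcript, 5′ to 3′ on the TEC strand, from GENCODE M21 (GRCm38, the assembly also called mm10), and capitals mark AATAAA or ATTAAA. They were chosen as the most abundant member and, among members past the test, the one with the largest rise and the one with the largest fall in each of the position groups described next. Of the 8, 3 hold such a signal, and the other 5 are printed in lower case throughout.
Gm44250: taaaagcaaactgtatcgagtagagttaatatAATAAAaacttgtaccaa
Gm45745: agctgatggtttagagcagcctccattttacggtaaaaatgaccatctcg
Gm43980: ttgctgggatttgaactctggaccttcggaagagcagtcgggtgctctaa
Gm43668: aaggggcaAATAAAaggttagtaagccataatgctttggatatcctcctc
Gm43909: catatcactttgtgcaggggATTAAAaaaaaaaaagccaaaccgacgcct
AC160637.1: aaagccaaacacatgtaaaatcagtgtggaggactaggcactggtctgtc
Gm47258: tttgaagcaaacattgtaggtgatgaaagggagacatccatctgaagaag
Gm42615: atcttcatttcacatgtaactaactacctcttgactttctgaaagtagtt
Gm44250 (chr6:5216258-5216307, minus strand) and Gm45745 (chr8:25103489-25103538, minus) overlap no coding gene. Gm43980 (chr6:49256413-49256462, plus), Gm43668 (chr3:34075951-34076000, plus) and Gm43909 (chr6:145865123-145865172, plus) lie opposite a coding gene. AC160637.1 (chr9:59676651-59676700, plus), Gm47258 (chr13:65290745-65290794, plus) and Gm42615 (chr5:51491097-51491146, minus) lie in a coding gene on its own strand. Only Gm44250 has the signal within 18 bases of its end, the others with a signal having it 42 bases (Gm43668) and 30 bases (Gm43909) before the end.

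By position, 309 of the 388 members overlapped a protein-coding gene and 79 overlapped none. Of the 309, 238 overlapped one on the same strand and 71 one on the opposite strand only, and 290 lay wholly inside the gene. Strand here is that of the annotation. The sources used here do not give the strand setting of the counts, so the strand of the reads is not known for any member. The 309 members fell in 265 coding genes, 234 of which held a single member and 9 of which held 3 or more. In 235 of the 309 no base lay in an annotated exon of another gene, so that these members were wholly intronic in the annotation, while 74 shared between some and 71.7% of their bases with an exon. All 388 had a listed length equal to their span, and the 387 found in GENCODE M21 had 1 exon there.

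The members were mostly weak, with a median of 128.5 counts over the 6 libraries. Their median length was 2297.5 bases, from 193 bases for Gm38268 in Lyplal1 to 30942 bases for 9330162G02Rik opposite Ube3a, and their median GC content was 41.8%. Together they took 0.126%, 0.144% and 0.132% of the counts of DMSO replicates 1, 2 and 3, and 0.117%, 0.100% and 0.113% of those of pyrotinib replicates 1, 2 and 3. Per length (FPKM, mean of the 6 libraries), the median level of a TEC was 8.04% of that of the coding gene it overlapped, with quartiles of 2.93% and 21.1%. It was above the coding gene's level for 7 of 309 members, among them Gm37249 opposite Esyt3 and 9930120I10Rik in Rab43.

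Library totals ran from 15005737 to 16171030 counts. Slopes against GC content were taken relative to the mean of the 3 DMSO libraries, so the DMSO slopes centre on 0 by construction. On this scale, log2 levels in pyrotinib replicates 1 and 3 were lower by 0.235 and 0.268 per 10 percentage points of GC. The slopes of the other 4 libraries lay between -0.012 and 0.018. DMSO replicate 2 was the highest of the 6 libraries for 118 of the 309 members that overlapped a coding gene and for 6 of the 79 that did not. Of 9 Leydig cell markers, Lhcgr and Hsd3b6 were at 0 and only Star and Insl3 had at least 60 counts, at 2.27 and 2.18 CPM in DMSO, so most defining markers of the labelled cell type were near 0. Of 5 peritubular and stromal markers, Col1a1, Vim and Pdgfra were abundant and Acta2 stood at 72.4 CPM in DMSO, while the smooth muscle gene Myh11 had only 59 counts in all. Summed markers of germ cells, endothelium and macrophages stayed at or below 3.99 CPM in every library. Of the Sertoli markers only Wt1, which other gonadal cells also express, exceeded 60 counts. In bulk RNA, fewer cells with a transcript and less of it per cell cannot be told apart.

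With pyrotinib, the TEC rows moved differently by position. Those inside or opposite a coding gene were on balance lower, and those that overlapped none were on balance higher. Summed over the 238 same-strand members, the level was 901, 1101 and 968 CPM in DMSO replicates 1 to 3 and 744, 641 and 696 CPM in pyrotinib replicates 1 to 3. The groups did not overlap, but AC160637.1, a TEC in Pkm, supplied much of the difference. Without it, the same-strand sum was 621, 723 and 645 CPM against 621, 509 and 592 CPM, with DMSO replicate 1 and pyrotinib replicate 1 almost level.

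The 71 opposite-strand members summed to 148, 196 and 161 CPM in DMSO and 143, 118 and 146 CPM in pyrotinib. DMSO replicate 2 was highest and pyrotinib replicate 2 lowest, and the groups stood close together in replicates 1. The 79 members with no coding gene summed to 206, 196 and 201 CPM in DMSO and 269, 235 and 276 CPM in pyrotinib, a ratio of means of 1.29. All 3 pyrotinib libraries were above all 3 DMSO libraries, and the DMSO libraries differed little among themselves. The 265 overlapped coding genes summed to 41555, 41342 and 41189 CPM in DMSO and 42820, 40400 and 42912 CPM in pyrotinib, so the groups overlapped for the genes that held the TEC rows.

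**Figure D1:**
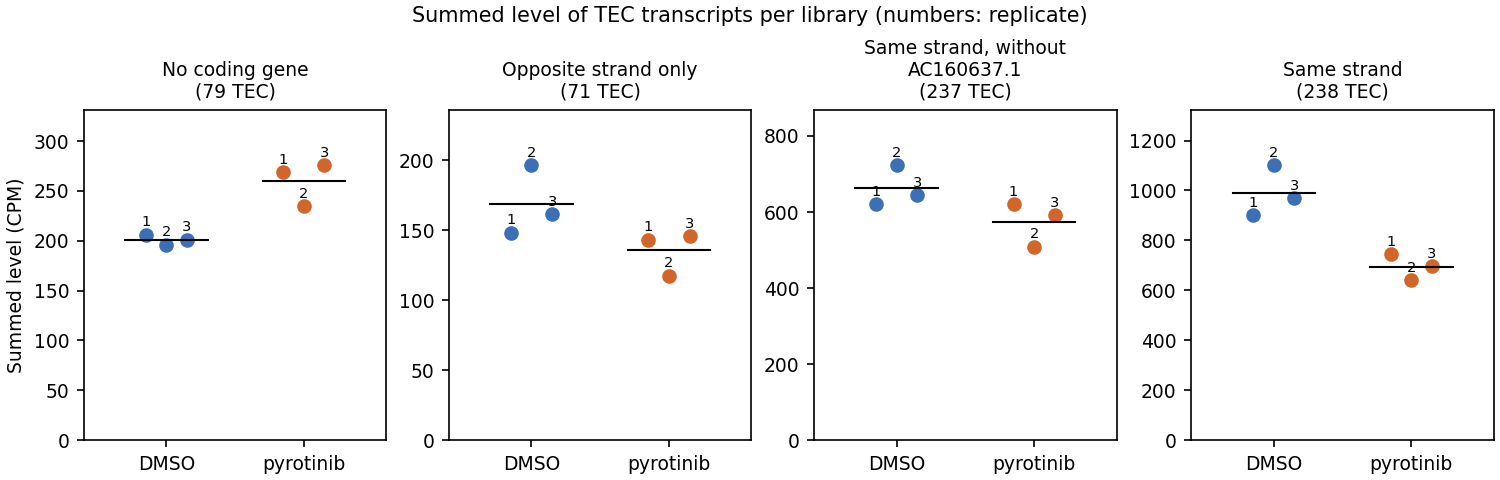
Summed level of the TEC rows in each library, in CPM, for the 4 position sets; each point is 1 library, numbered by replicate, and the line is the group mean. The sum with no coding gene is higher in all 3 pyrotinib libraries (235 to 276 CPM) than in DMSO (196 to 206 CPM), while the same-strand sum is lower, an order that becomes nearly level in replicates 1 without AC160637.1.

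Gene by gene, edgeR's quasi-likelihood test called 17 members higher and 41 lower at an adjusted p of 0.05 (Benjamini-Hochberg over 14125 tested genes), of 375 members that passed the count filter. These are 4.53% and 10.9% of the tested members, where 13.2% of all tested genes were called higher and 12.8% lower, 26.0% in all. Both shares lay below the background, and this difference was not tested. The members had a median of 128.5 counts over the 6 libraries and were not matched to the background in abundance. The 13 untested members, with 60 to 71 counts, comprised 9 on the same strand, 1 opposite and 3 with no coding gene. The filter needed 0.628 CPM in 3 libraries, and 9 members passed it only through the DMSO libraries and 2 only through the pyrotinib libraries, so that these had to differ. Of these 9, 8 were among the 41 called lower, while neither of the 2 was called. With these included, 67 tested members reached the level in all 3 DMSO but not all 3 pyrotinib libraries, and 46 the reverse. For them too the filter was met with the help of the higher group, so their calls are not free of it. Among those named below, Gm43909 and 4833412C15Rik are of the first kind, and Gm45745, Gm48874 and Gm47258 of the second. With no count filter, 20 members were called higher and 42 lower.

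The calls split by position. Among 299 tested members that overlapped a coding gene, 8 were called higher (2.68%) and 41 lower (13.7%), with a median log2 change of -0.26. These 41 include all 8 lower calls of rows that passed the count filter only through the DMSO libraries. Those rows had to differ, so their calls are no support for a split by position. The same-strand members had 6 higher and 29 lower of 229 (median -0.25), and the opposite-strand members 2 higher and 12 lower of 70 (median -0.31), both with more lower than higher calls. Among 76 tested members with no coding gene, 9 were called higher (11.8%) and none lower by edgeR, 23 had an unadjusted p under 0.05, the median was 0.45, and 60 of the 76 lay above 0. The median over all 14125 tested genes was 0.00. The share of lower calls in the first set and of higher calls in the last lay close to the background of 12.8% and 13.2%. The calls in the other direction, 2.68% and 0, were the shares furthest from it. The difference between position groups was not tested.

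Counted by non-overlap of the groups, 78 tested members had all 3 pyrotinib libraries below all 3 DMSO libraries and 45 had them above, where 20.3% and 20.6% of all tested genes did. Of these, 76 of the lower and 21 of the higher members overlapped a coding gene, and 2 of the lower and 24 of the higher did not. A correction for GC content left 11 higher and 64 lower calls, with 3 instead of 9 among members with no coding gene, and the medians at -0.46 and 0.32. Without DMSO replicate 2, 7 were called higher and 24 lower, with 3 higher among members with no coding gene and medians of -0.19 and 0.42. Leaving out other libraries moved the count of 9 as well, to 3 when DMSO replicate 3 was dropped and to 3, 14 and 5 when pyrotinib replicates 1, 2 and 3 were. The 17 higher calls became 8, 9, 34 and 9 in these same fits, and the 41 lower calls became 24 without pyrotinib replicate 3. The signs of both medians were kept in each of these fits.

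**Figure D2:**
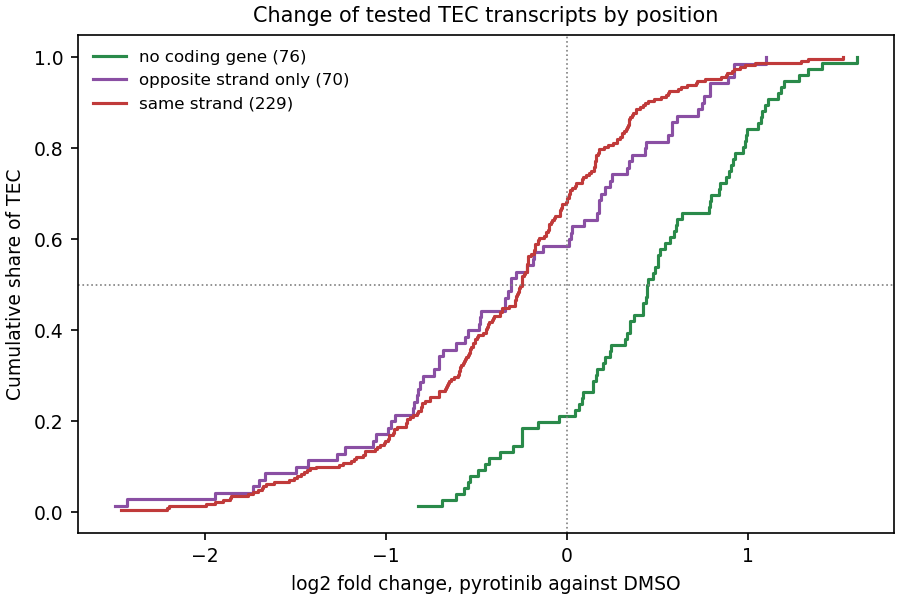
Cumulative share of tested TEC rows (y axis) by log2 fold change of pyrotinib against DMSO (x axis) for the 3 position groups. The curve of the 76 members with no coding gene lies to the right of the other 2 along its whole length, with a median of 0.45 against -0.25 (same strand) and -0.31 (opposite strand).

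Other classes under the same limit of 60 counts give a scale for these balances. They were not matched to the TEC rows in abundance, so shares called are not directly comparable. On autosomes at 60 counts or more, 48 of 359 lincRNA genes were called higher and 24 lower (median 0.15), a balance on the side of the TEC rows with no coding gene. Of 48 sense-intronic genes, 4 were called higher and 7 lower (median -0.15), and of 361 antisense genes 26 higher and 34 lower (median -0.02). Processed pseudogenes, single-exon copies of mRNA, had 11 higher and 69 lower of 579 (median -0.19). Protein-coding genes had 1602 higher and 1551 lower of 11320 (median 0.00). Among RNAs kept in the nucleus, Malat1 fell from 2591, 3294 and 2704 CPM to 2068, 2188 and 2191 CPM (log2 -0.41, edgeR adjusted p = 0.0023), while Neat1, the core of paraspeckles, rose from 283, 299 and 292 CPM to 330, 428 and 316 CPM (log2 0.30, edgeR adjusted p = 0.035). Kcnq1ot1 did not pass the test (log2 0.13), Rian stood near 1 CPM, and Mirg and Meg3 were nearly absent.

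TEC rows under the 60-count limit were too weak to read singly, and are given as sums. The 1279 same-strand rows summed to 130, 183 and 134 CPM in DMSO and 114, 89.2 and 130 CPM in pyrotinib. The 2 groups did not overlap, by a margin of less than 1 CPM. The 393 opposite-strand rows summed to 29.3, 38.5 and 33.2 CPM and 35.4, 31.9 and 33.2 CPM, and the 1085 rows with no coding gene to 40.5, 34.8 and 30.7 CPM and 45.2, 37.9 and 44.3 CPM. In both of these sets the groups overlapped. At the limit itself, 14 members had 60 or 61 counts, 10 of them overlapping a coding gene, and 10 rows with 58 or 59 counts fell just outside, 9 of them overlapping one. The nearest inside, at 60 counts each, were Gm37145, Gm37152, Gm17530, Gm43817, Gm45001 and Gm45084, and the nearest outside, at 59, were Gm43359, Gm48865, 9430031K09Rik and Gm47817.

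Among the members with no coding gene, the most abundant was Gm44250 (chr6:5216258-5220486, minus strand), which starts 366 bases after the end of Pon3, a lactonase of the paraoxonase family. It stood at 39.6, 38.5 and 43.0 CPM in DMSO and 43.6, 45.3 and 54.3 CPM in pyrotinib. The pyrotinib libraries were all above the DMSO libraries, by less than the test asked for (log2 0.24 ± 0.11 SE, edgeR adjusted p = 0.099). Gm45884 on chromosome 18, 91 bases after Pura, which encodes a nucleic acid binding protein, rose from 16.0, 19.3 and 19.0 CPM to 28.2, 19.5 and 26.4 CPM (log2 0.45 ± 0.14, edgeR adjusted p = 0.026). Its pyrotinib replicate 2 was level with DMSO, and the call was lost without any 1 of the other 5 libraries (edgeR adjusted p of 0.055 to 0.13). The next most abundant, Gm42547, Gm47640 and CT010445.1, did not pass the test, with log2 changes of 0.42, 0.44 and 0.08.

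Of the 10 largest rises with groups that did not overlap, 6 were members with no coding gene. Gm45745 (chr8:25103489-25104668, minus), 1113 bases before Plekha2, stood at 0.999, 0.384 and 0.686 CPM in DMSO and 1.28, 3.13 and 1.88 CPM in pyrotinib. Pyrotinib replicate 2 was its highest library, and it had the largest rise of all members (log2 1.60 ± 0.45, edgeR adjusted p = 0.015). A430103D13Rik (chr12:76344525-76345381, minus), 2401 bases after the zinc finger gene Zbtb25, rose from 2.20, 2.24 and 1.497 CPM to 4.22, 4.49 and 3.14 CPM (log2 1.00 ± 0.28, edgeR adjusted p = 0.015). The other 4 were Gm48874 (log2 1.33), Gm48701 (1.18), Gm37607 (1.09) and Gm47233 (1.05), with 0.320 to 1.80 CPM in the DMSO libraries. All 6 were weak and lost the call when 1 library was dropped (written here as DMSO 2 for DMSO replicate 2): Gm45745 without DMSO 2, DMSO 3 or pyrotinib 2, A430103D13Rik without DMSO replicate 3, Gm48701 and Gm37607 without DMSO 2, DMSO 3 or pyrotinib 1, Gm48874 without any library but pyrotinib replicate 2, and Gm47233 without any but DMSO replicate 2. With the GC correction Gm45745 kept its call, and the edgeR adjusted p of the other 5 lay between 0.050 and 0.075.

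The other 4 of the 10 rises overlapped a coding gene. Gm38253 (chr3:106725599-106730276, plus) lies in Lrif1, whose product binds nuclear receptors and heterochromatin, and 22.7% of its bases are Lrif1 exon. It rose from 7.26, 5.50 and 6.18 CPM to 16.6, 11.3 and 19.9 CPM (log2 1.33 ± 0.19, edgeR adjusted p = 0.00013). Lrif1 rose with it, from 27.1, 18.8 and 27.9 CPM to 66.2, 44.9 and 76.0 CPM (log2 1.34, edgeR adjusted p = 3.3e-05), and in both the order of the 6 libraries was nearly the same. The difference between the 2 changes was -0.02 ± 0.27 (SE, log2).

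Gm38372 (chr1:7148110-7152137, plus) lies in an intron of Pcmtd1, a relative of the protein-repair enzyme isoaspartyl methyltransferase. It rose from 10.8, 5.57 and 9.23 CPM to 18.1, 14.4 and 18.2 CPM (log2 0.99 ± 0.19, edgeR adjusted p = 0.0013), beside a rise of Pcmtd1 (log2 0.45, edgeR adjusted p = 0.0017). Gm47258 (chr13:65289453-65290794, plus), intronic in the zinc finger gene Zfp369, stood at 0.800, 0.640 and 0.811 CPM in DMSO and 2.11, 2.21 and 2.20 CPM in pyrotinib. Its libraries agreed closely within each group (log2 1.53 ± 0.37, edgeR adjusted p = 0.0061). Zfp369 itself did not pass the test (log2 0.24), and the rise of the TEC was larger than that of the gene by log2 1.29 ± 0.35 (edgeR interaction test, adjusted p = 0.027), a difference that lost the call without any 1 library (adjusted p of 0.055 to 0.16). Gm43668 (chr3:34070659-34076000, plus) lies opposite Dnajc19, a mitochondrial co-chaperone, and starts 337 bases after Fxr1 on its own strand (log2 1.10 ± 0.34, edgeR adjusted p = 0.023, lost without any library but pyrotinib replicate 2).

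The 10 largest falls, taken by the same rule, were all in members that overlap a coding gene. Of these 10, 6 passed the count filter only through the DMSO libraries and had to differ: Gm42615, Gm43361, Gm43088, Gm43808, Gm37689 and Gm43817. Their values are given as a description, with no p. Gm43909 (chr6:145863297-145865172, plus) lies opposite Bhlhe41, a transcriptional repressor linked to the circadian clock. It stood at 2.60, 4.93 and 2.50 CPM in DMSO and 0.512, 0.922 and 0.314 CPM in pyrotinib. The lowest DMSO library was well above the highest pyrotinib library (log2 -2.50 ± 0.43, edgeR adjusted p = 0.00056). Bhlhe41 stood at 43.6, 42.0 and 43.4 CPM against 36.7, 43.9 and 38.3 CPM and did not pass the test (log2 -0.12 ± 0.10, edgeR adjusted p = 0.41). Of the bases of Gm43909, 68.2% are Bhlhe41 exon on the other strand, and the sources used here do not give the strand setting of the counts, so reads of the 2 genes cannot be told apart there.

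Gm42615 (chr5:51491097-51492916, minus) lies in an intron of Ppargc1a, the coactivator that drives mitochondrial biogenesis. It stood at 0.866, 2.18 and 1.56 CPM in DMSO and 0.448, 0.123 and 0.251 CPM in pyrotinib (log2 -2.46 ± 0.56), at 13, 34 and 25 counts against 7, 2 and 4. Ppargc1a stood at 35.1, 30.9 and 31.2 CPM against 32.1, 28.2 and 28.7 CPM (log2 -0.13, edgeR adjusted p = 0.41). Gm43361 (chr5:122496159-122500848, plus), opposite the first part of Atp2a2, the calcium pump of the endoplasmic reticulum, stood at 1.40, 2.30 and 1.497 CPM in DMSO and 0.448, 0.123 and 0.377 CPM in pyrotinib (log2 -2.43 ± 0.51). In both, pyrotinib replicate 2 was the lowest library and DMSO replicate 2 the highest.

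4833412C15Rik (chr15:77113732-77115802, minus), in an intron of the splicing regulator Rbfox2, stood at 2.53, 2.43 and 2.68 CPM in DMSO and 0.640, 0.369 and 0.628 CPM in pyrotinib. DMSO replicate 2 did not stand out here (log2 -2.21 ± 0.39, edgeR adjusted p = 0.00065). Gm43759 (chr5:112367212-112368472, plus) in Hps4, a subunit of a complex for lysosome-related organelles, fell from 4.60, 5.57 and 4.18 CPM to 1.15, 1.17 and 1.38 CPM (log2 -1.95 ± 0.28, edgeR adjusted p = 0.00012). Hps4 fell less, by log2 0.54 (-0.54, edgeR adjusted p = 0.0028). Gm45779, at the start of the endocytic adaptor gene Eps15l1, fell by 1.86 on the log2 scale beside a fall of 0.31 of the gene.

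Gm43088 lies in Dnajb14, a co-chaperone of the endoplasmic reticulum. It had 16, 15 and 24 counts in DMSO and 2, 9 and 1 in pyrotinib (log2 -2.20 ± 0.61), beside a rise of Dnajb14 (log2 0.38, edgeR adjusted p = 0.027). The last 3 of the 10, Gm43808 opposite Tmem214, Gm37689 in Sdcbp and Gm43817 in Zfp326, stood at log2 -1.95, -1.90 and -1.86 with 60 to 80 counts in all. Of Gm43808, 71.7% is Tmem214 exon on the other strand. Gm43909, 4833412C15Rik, Gm43759 and Gm45779 kept their call without any 1 library and with the GC correction.

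**Figure D3:**
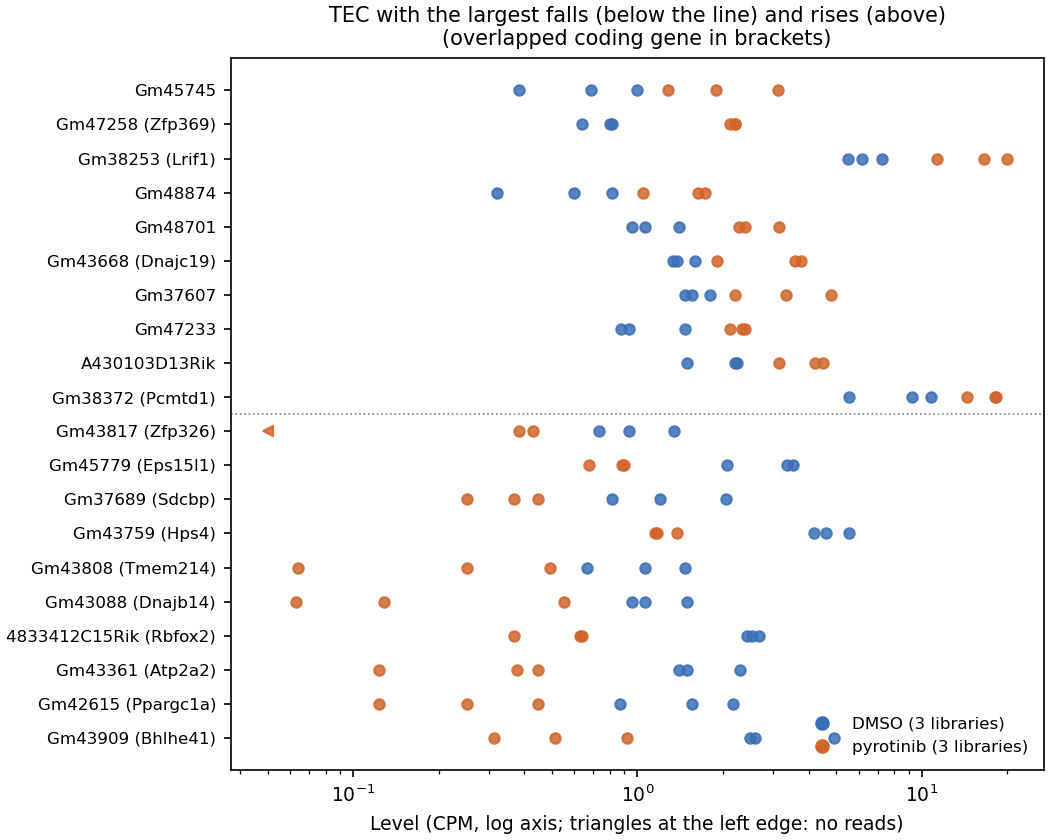
Level in each library (CPM, log axis) of the 10 members with the largest rise, above the dotted line, and the 10 with the largest fall, below it, with the overlapped coding gene in brackets; blue points are DMSO and orange points pyrotinib libraries. Most of these rows stand between 0.1 and 6 CPM, the triangle marks a library with no reads, and Gm38253 and Gm38372 are the most abundant of the 20.

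Each TEC that overlaps a coding gene was next set against that gene, by the edgeR interaction of transcript and treatment within libraries. Adjusted over the 1159 pairs of a non-coding and an overlapping coding gene of any biotype, 28 of 295 TEC pairs were called lower than the coding gene (9.49%) and 2 higher (0.678%). Of the 28, 6 were pairs of TEC rows that passed the count filter only through the DMSO libraries. Over all pairs 7.25% were called lower and 1.29% higher, 8.54% in all, and over the 840 pairs of other biotypes 6.43% and 1.31%. The TEC share was near this background. The median difference was -0.41, with 214 of 295 pairs below 0, where the median over the pairs of other biotypes was -0.19. These other biotypes differed among themselves, and some stood near the TEC rows. Processed pseudogenes had a median of -0.40 with 15 of 157 pairs called lower, and sense-intronic genes -0.31 with 6 of 43. Antisense genes stood at -0.17, processed transcripts at -0.02 and lincRNA genes at 0.01. Differences between biotypes were not tested. The coding genes in the TEC pairs had a median change of 0.07 and the TEC rows -0.26.

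Most of these calls were lost when any 1 of 5 libraries was dropped, while 22 lower and 2 higher were called without DMSO replicate 1. The 28 lower calls became 8 without DMSO replicate 2, 4 without DMSO replicate 3, and 10, 6 and 8 without pyrotinib replicates 1, 2 and 3, and the 2 higher calls became 0 in each of these 5 fits. Median differences without 1 library stayed between -0.45 and -0.31. In the 235 members with no base in another gene's exon, 18 pairs were called lower and 2 higher of 226, with a median of -0.38. Across the 295 pairs, the change of the TEC and that of its gene had the same sign in 163, with a Pearson correlation of 0.32 and a Spearman correlation of 0.31; pairs share libraries, and 31 coding genes hold more than 1 member, so these are descriptions.

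**Figure D4:**
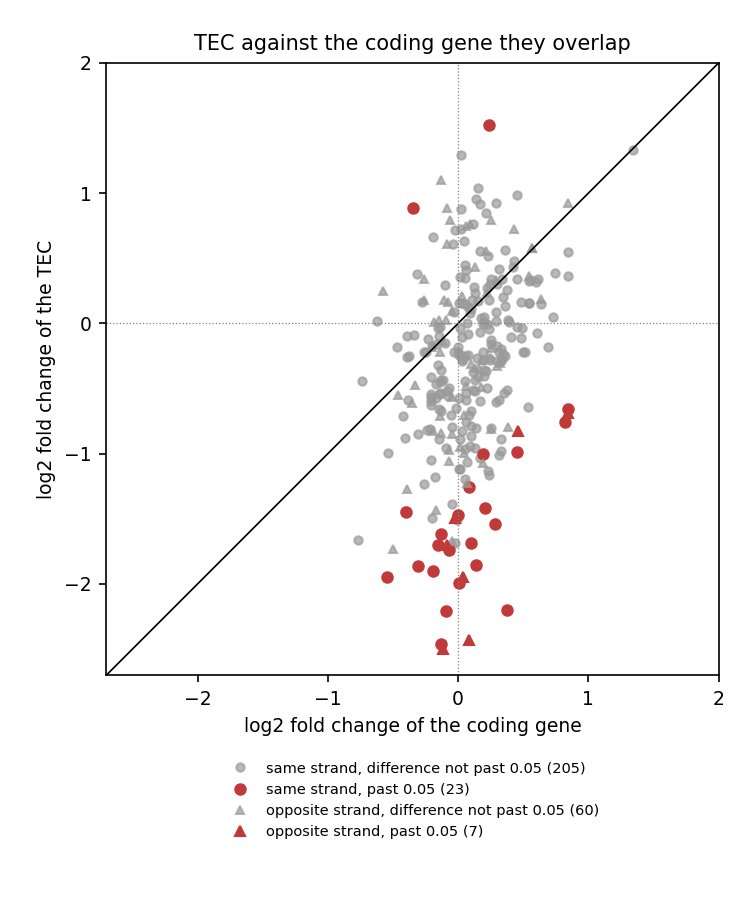
Log2 fold change of each TEC (y axis) against that of the coding gene it overlaps (x axis) for 295 pairs; the solid line marks equal change, circles are same-strand and triangles opposite-strand pairs, and red marks a difference past an adjusted p of 0.05. Of the 30 red points 28 lie below the line, where the change of the TEC is lower than that of the coding gene.

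The 41 TEC rows called lower lay in 10 coding genes called lower, 3 called higher, 26 with no call and 2 untested. Of the overlapping members without a call, 63 lay in a coding gene called higher, 13 in one called lower, 172 in one with no call and 2 in an untested one. Of tested autosomal protein-coding genes at 60 counts or more, 14.2% were called higher and 13.7% lower. The former are counts of TEC rows, some of which share a gene, and the latter shares of distinct genes. The clearest opposite movement was Gm37123 (chr3:32454587-32455757, plus), an intronic TEC of 1171 bases in Pik3ca, the catalytic p110 alpha subunit of PI3-kinase. It fell from 6.66, 7.30 and 5.93 CPM to 2.11, 3.01 and 1.70 CPM (log2 -1.54 ± 0.25, edgeR adjusted p = 0.00030). Pik3ca rose from 87.3, 79.9 and 81.8 CPM to 102, 90.5 and 111 CPM (log2 0.28, edgeR adjusted p = 0.028). Neither pair of groups overlapped, and the difference was -1.83 ± 0.32 (log2, edgeR interaction, adjusted p = 0.0019).

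Among the 10 pairs with the smallest p were also intronic TEC rows in genes that did not pass the test. Gm45493 in Agpat5, an acyltransferase of phospholipid synthesis, fell from 3.73, 5.25 and 4.37 CPM to 1.73, 1.35 and 1.07 CPM (difference from the gene -1.78 ± 0.32, edgeR interaction, adjusted p = 0.0021). Gm45853 in Csnk2a2, a catalytic subunit of casein kinase 2, fell from 3.80, 4.22 and 5.12 CPM to 1.34, 1.54 and 1.38 CPM (difference -1.48 ± 0.32, adjusted p = 0.0089 by the same edgeR test). Gm45407 in Arhgap10 fell from 5.13, 7.17 and 6.18 CPM to 3.14, 1.97 and 1.57 CPM, and Arhgap10 stood at 118, 131 and 119 CPM against 117, 133 and 116 CPM. In each, all 3 pyrotinib libraries of the TEC were below all DMSO libraries. Gm42576 in Chic2 had a difference of -1.32 ± 0.30, and Gm43909 and 4833412C15Rik had differences of -2.36 and -2.12. The other 3 of the 10, Gm43361, Gm43088 and Gm42615, stood at -2.51, -2.57 and -2.33, given as a description because the filter had required these rows to differ.

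Of the other 7 differences, those of Gm37123, Gm43909 and 4833412C15Rik kept their call without any 1 library (edgeR adjusted p of at most 0.048). Gm45493 lost it without DMSO replicate 3, and Gm45407 without DMSO 3, pyrotinib 2 or pyrotinib 3. Gm45853 lost it without DMSO replicate 3 or any pyrotinib library, and Gm42576 without any library but DMSO replicate 1.

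The other pair called higher, named here because only 2 were called and outside the naming rule, was Gm43128 (chr2:35280390-35282010, plus) in Gsn, the actin-severing protein gelsolin. The TEC rose from 4.40, 3.90 and 5.12 CPM to 9.15, 7.37 and 8.29 CPM while Gsn fell from 414, 441 and 428 CPM to 313, 379 and 317 CPM (difference 1.24 ± 0.30, edgeR interaction, adjusted p = 0.015). Also outside the rule, and chosen after its values were seen, 9330162G02Rik is the longest member and lies opposite Ube3a, a ubiquitin ligase whose own antisense RNA silences it in neurons. It stood at 4.40, 10.6 and 6.11 CPM in DMSO and 4.67, 3.56 and 3.64 CPM in pyrotinib, beside 103, 88.5 and 103 CPM against 142, 111 and 151 CPM for Ube3a. Its DMSO replicate 1 lay within the pyrotinib range, so the groups overlapped, although the TEC was called lower (log2 -0.83, edgeR adjusted p = 0.030) and Ube3a higher (log2 0.46, edgeR adjusted p = 0.0044).

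The most abundant member was AC160637.1 (chr9:59672814-59676700, plus), 3887 bases inside Pkm, the pyruvate kinase of the last step of glycolysis, whose M1 and M2 forms arise by alternative splicing. It had 20987 counts in all, far above the next member, Gm44250, with 4168. It stood at 280, 378 and 323 CPM in DMSO and 123, 132 and 104 CPM in pyrotinib, a fall of 2.74-fold (log2 -1.45 ± 0.11, edgeR adjusted p = 2.4e-07). The groups were far apart, and the call held without any 1 library. Pkm stood at 1979, 2334 and 2094 CPM in DMSO and 1471, 1920 and 1461 CPM in pyrotinib (log2 -0.40, edgeR adjusted p = 0.0068), a smaller fall.

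The difference between AC160637.1 and Pkm was -1.04 ± 0.24 (log2, edgeR interaction, adjusted p = 0.013). It stayed between -1.13 and -0.98 without any 1 library, and its adjusted p rose to between 0.056 and 0.092 without DMSO 2, DMSO 3, pyrotinib 2 or pyrotinib 3. Of the 17 exon blocks of Pkm in GENCODE M21, 3 have bases in the TEC and 2 of these lie wholly in it. They share 767 bases with it, 19.7% of its length, and the other 3120 bases are intron. Reads on the shared bases could count for either gene, and the sources used here do not say how the authors' counting treated them. Per length the TEC stood at 58.7 FPKM and Pkm at 383 FPKM, means of 6 libraries.

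**Figure D5:**
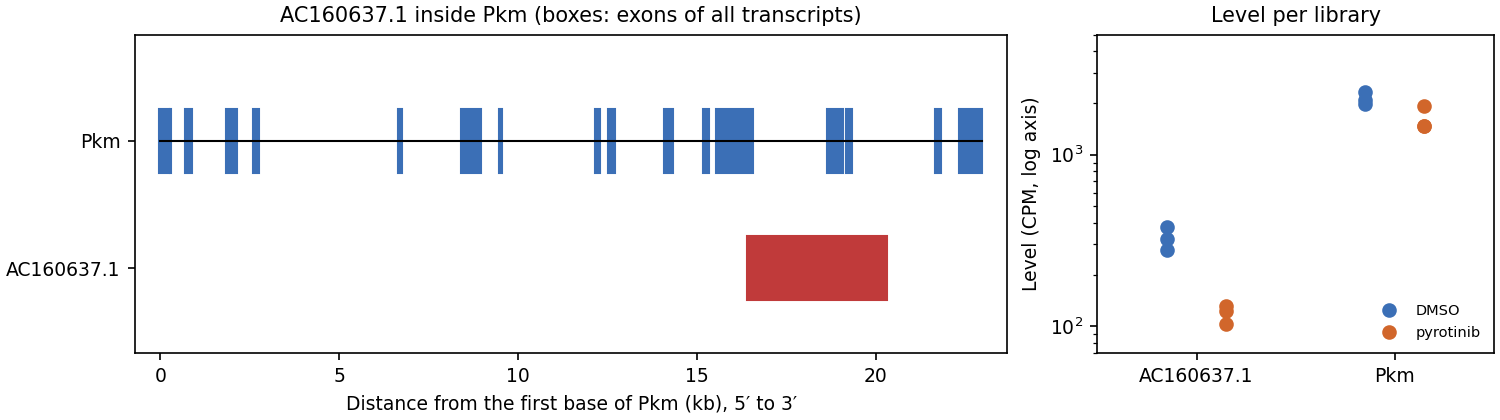
Left, the position of AC160637.1 (red) within Pkm (blue boxes: exons of all annotated transcripts; line: introns), in kb from the first base of Pkm; right, the level of both in each library (CPM, log axis; blue DMSO, orange pyrotinib). The TEC covers 2 whole exon blocks and the introns around them near the 3′ part of the gene, and its libraries separate by more (104 to 132 against 280 to 378 CPM) than those of Pkm.

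The other abundant overlapping members are given beside their genes. Gm43980 (chr6:49254851-49256462, plus), opposite the splicing factor gene Tra2a, fell from 31.6, 46.4 and 39.1 CPM to 25.6, 23.7 and 31.0 CPM (log2 -0.55 ± 0.14, edgeR adjusted p = 0.0070), and Tra2a fell by 0.46 (log2, edgeR adjusted p = 0.0011). The difference between them was -0.08 ± 0.28, and per length the TEC stood at 89.0% of Tra2a. Its call was lost without DMSO replicate 2 (edgeR adjusted p = 0.063). AC154232.2 in Golgb1, the Golgi tether giantin, fell from 39.4, 46.9 and 46.5 CPM to 37.2, 32.8 and 30.6 CPM (log2 -0.40 ± 0.11, edgeR adjusted p = 0.012), a call lost without DMSO 2, DMSO 3 or pyrotinib 3. Golgb1 stood at 277, 263 and 293 CPM in DMSO and 297, 346 and 313 CPM in pyrotinib, higher in all 3 pyrotinib libraries without passing the test (log2 0.20 ± 0.08, edgeR adjusted p = 0.086). The difference between the TEC and Golgb1 was -0.60 ± 0.27 (log2, edgeR interaction, adjusted p = 0.16). Gm36936 in the ubiquitin ligase gene Nedd4 (log2 -0.24 ± 0.14) and Gm43300 in Ptbp2, a splicing repressor (0.02 ± 0.16), did not pass the test.

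Several coding genes held 3 or more members, and differences between neighbours within 1 gene were not tested. Kansl1l, a relative of a histone acetyltransferase subunit, rose (log2 0.84, edgeR adjusted p = 0.00026) and held 5 members with log2 changes of -0.66, 0.55, -0.69, 0.37 and 0.93. Gm37570 in Kansl1l stood at 1.40, 1.98 and 1.37 CPM in DMSO and 0.640, 1.23 and 1.13 CPM in pyrotinib and differed from the gene by -1.50 (edgeR interaction, adjusted p = 0.029), as did Gm38162 by -1.52 (adjusted p = 0.014 by the same edgeR test). None of the 5 passed the test by itself. Of the 4 in Usp33, a deubiquitinase, 3 were below 0 and Gm43858 was called lower (log2 -0.80, edgeR adjusted p = 0.017), with the gene at -0.05. Of the 4 in Picalm, a clathrin adaptor, Gm45221 stood at 0.41 and the other 3 between -0.76 and -0.53, none past the test. All 3 in Ppp2r3a lay above 0 (0.16 to 0.36) where the gene rose by 0.55.

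Place along the gene was also compared. With the span of each gene divided into 3 equal parts, same-strand members centred in the first part had 0 higher and 7 lower of 62 tested (median -0.44), where 14 had an unadjusted p under 0.05. Those in the middle had 3 and 8 of 76 (median -0.22), and those in the last part 3 and 14 of 91 (median -0.25). All 3 sets were on the side of a fall, and the differences between them were not tested. Per length, members in the first part stood at a median of 3.66% of their gene, against 12.2% in the middle and 8.34% in the last part.

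Of the 79 members with no coding gene, 23 started within 5 kb after the end of a coding gene on the same strand. Of the 22 tested, 4 were called higher, with a median of 0.46, and of the 54 tested among the other 56, 5 were called higher, with a median of 0.43. The medians of the near and the far members lay close together. The shares called higher were 18.2% and 9.26%, beside 13.2% of all tested genes, and their difference was not tested. In the 20 cases where both were tested, the median change was 0.51 for the TEC and 0.24 for the upstream gene, and the signs matched in 11. Gm43719 (chr5:13604035-13606233, plus), outside the naming rule, lies 1470 bases after Sema3a, a secreted guidance protein, and rose from 4.93, 4.16 and 3.99 CPM to 9.66, 7.43 and 8.61 CPM (log2 0.97 ± 0.19, edgeR adjusted p = 0.0015), beside a rise of Sema3a (log2 0.73, edgeR adjusted p = 0.00013). In contrast, 5430430B14Rik lies 2767 bases after Eif4ebp1, a repressor of translation that fell (log2 -0.59, edgeR adjusted p = 0.0021), and stood at log2 0.54 without passing the test.

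The sequence at the ends differed by position too. AATAAA or ATTAAA, searched on the TEC strand in the last 50 bases, was found in 126 of 387 members (32.6%) and in 29.0% of all autosomal TEC rows, against 68.5% of the longest transcripts of 20807 protein-coding genes. The share was 20.6% in same-strand members, 57.7% in opposite-strand members and 46.2% of members with no coding gene, and the order was the same over all TEC rows (19.4%, 43.5% and 35.6%). A run of at least 10 A within the transcript was found in 22.0% of members. Of the members called higher 3 of 16 had a signal, and of those called lower 10 of 41. A run of at least 10 A was found in 7 of 16 members called higher (43.8%), 8 of 41 called lower (19.5%) and 68 of 317 without a call (21.5%), and the difference between these shares was not tested. A match is only a match of letters, and the bases after the ends were not examined.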

How the data were processed

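Per the labels' protocols, 3 DMSO and 3 pyrotinib libraries of TM3 cells were made from poly(A) RNA with no step described that marks the strand. The authors deposited whole-number read counts per gene, used for all tests, and FPKM per gene, used for levels per length and as an alternative. The build mm10 and the tools HISAT2 2.0.5, featureCounts 1.5.0-p3, DESeq2 1.20.0 and fastp are named per the submitters' processing notes. The sources used here do not give the strand setting, the handling of reads shared by genes or places, or the annotation release. All sample columns of the tables were used.

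The members, gene lists and tests were chosen with earlier results of these data known. Members were split by overlap of their span with protein-coding genes in the deposited table. Where several overlapped, the coding gene with the longest overlap was taken, then the same strand, then the shorter gene. Exons, neighbours, GC content and transcript sequences came from GENCODE M21; 98.1% of the 54495 shared identifiers had the same position there.

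Counts were tested in R 4.3.3 with edgeR 4.0.16: filterByExpr (count of 10, total of 15), TMM scaling, and a two-sided quasi-likelihood F-test with no term for the replicate, adjusted by Benjamini-Hochberg over 14125 genes at 0.05. CPM are TMM-scaled, and ± marks the SE of a log2 change, approximated from F. The change of a TEC was compared with that of its coding gene by an edgeR interaction term in a model of both genes with a term for each library, adjusted over 1159 pairs of any non-coding biotype. Position groups, neighbours and sequence ends are described without a test.

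Named are, among members past the threshold with groups that do not overlap, the 10 largest rises and 10 largest falls, the 5 most abundant members with and the 5 without a coding gene, the 10 pairs with the smallest p, and the coding gene of each. Also named are the members nearest to 60 counts and 6 RNAs kept in the nucleus. Other names are said to be outside this rule or stand in a list of a kind (genes with 3 or more members, members after a gene).

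The labels number the replicates of both groups 1 to 3 and do not say whether they are separate cultures, and the p-values therefore rest on a spread between libraries that may be technical. Alternatives were DESeq2 1.42.0, limma-voom (limma 3.58.1), other scalings and count filters, limma on log2(FPKM + 0.1) and log2(FPKM + 1) with a mean FPKM of at least 0.5 or with no filter, a replicate block, leaving out each library, GC correction by lowess (span 0.3), pyrotinib replicate 2 alone, limits of 30 and 120 counts, a threshold of 0.01, and members without bases in other exons. The last of these, the GC correction of the pairs and that without DMSO replicate 2 were added after seeing the data.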

Additional observations from a re-analysis of the deposited data

How the results depend on the processing

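The counts of calls depended on the setting more than the signs did. Medians were followed for all overlapping members, for those with no coding gene and for the differences from the coding gene. They kept their sign in every alternative run, and no named member that passed the test reversed. Same-strand and opposite-strand medians were not followed separately. The 17 higher calls became 8 with log2(FPKM + 0.1), 8 with log2(FPKM + 1), 6 with the latter and no filter, 11 with the GC correction, 5 with that and no DMSO replicate 2, 5 at a threshold of 0.01 and 2 with pyrotinib replicate 2 alone. In the same order, the 41 lower calls became 25, 25, 17 and 64, then 21 at 0.01 and 19 with pyrotinib replicate 2 alone, and 27 in members without bases in another exon. The 9 higher calls with no coding gene became 2, 2, 2, 3, 2, 1 and 1 in these 7 settings. Leaving out 1 library gave 7 to 34 higher, 24 to 39 lower and 3 to 14 higher with no coding gene.

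Of the pairs, 28 lower and 2 higher became 8 and 0 at 0.01, and 0 and 0 with pyrotinib replicate 2 alone. Lower pairs became 16 with limma on log ratios and 18 without bases in another exon. Leaving out 1 library gave 4 to 22 lower and 0 to 2 higher. Such fits have fewer samples, and with 1 pyrotinib library its spread is taken from DMSO.

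With the FPKM tables the medians moved to -0.14 and -0.12 for overlapping members and to 0.24 and 0.20 for the others at a pseudocount of 1, which shrinks the change of weak transcripts. DESeq2 called 45 members, 44 of them among the 58 called by edgeR. With a replicate block 61 members were called, 55 of them shared, and 28 of the 30 pairs. Same-numbered libraries showed little shared deviation (correlations of 0.005, 0.076 and 0.023). Differently numbered libraries were not compared, so whether the numbers pair the samples was not settled. Over the named members, 525 of the results under alternatives kept their side of the threshold, 114 lost the call and 6 gained one; for the pairs 209 kept and 79 lost it. At a median of 128.5 counts summed over the 6 libraries, counting error alone is large for most members.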
